A study of Rattus norvegicus with 10 samples.

Results

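The genes described here encode the enzymes of cholesterol and fatty acid synthesis and the proteins that control them. They were chosen by symbol, as 33 genes of the 32402 listed in the deposited tables, and all 33 were found once each under their own symbols. Of these, 32 were among the 15311 genes with enough counts to be tested. RNA sequencing of polyadenylated RNA was done on the supraoptic nucleus (SON), taken from Wistar Han rats. The SON is the hypothalamic nucleus whose magnocellular neurones make vasopressin and oxytocin. The 5 dehydrated samples came from rats whose drinking water was removed for 72 h, and the 5 euhydrated samples from rats with free access to water. Cages, not single animals, were allotted to the groups at random, and tissue was punched on both sides with a 1 mm corer from 12 coronal slices, per the labels' protocols. The labels give no sex, age, genotype or pooling, nor whether a sample is 1 animal, so the spread behind the p-values may be in part technical. The test treats the libraries of a group as independent and takes no account of cage. Such punches also hold glia, vessels and fibre tracts, and in this bulk RNA fewer cells of a type and less RNA per cell cannot be told apart.

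Cholesterol is built from acetyl-CoA through mevalonate, isoprenoids, squalene and lanosterol. Fatty acids are built from the same acetyl-CoA by acetyl-CoA carboxylase and fatty acid synthase, and are then elongated and desaturated in the endoplasmic reticulum. Both branches are known targets of the sterol regulatory element-binding proteins (SREBPs), membrane-held transcription factors that Scap escorts to the Golgi for cutting and that the Insig proteins hold back when sterols are plentiful. In the brain, glia are known as the main makers of both lipids, with oligodendrocytes making them for myelin.

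Each library held 24268398 to 28491926 counts assigned to genes. Levels are given as CPM, the usual unit of counts scaled to a common depth, here with TMM factors, and fold changes are dehydrated over euhydrated. CPM are not divided by gene length, so levels are compared between libraries and not between genes. A gene "rose" or "fell" where its adjusted p from edgeR's quasi-likelihood test, adjusted over all genes tested by Benjamini-Hochberg, was under 0.05. The 8 magnocellular markers summed to 12928 to 17003 CPM in dehydrated and 8633 to 12058 CPM in euhydrated libraries, with none at 0. Libraries carry the number in their column name, and the numbers of euhydrated 3, 4 and 5 could be tied to the group only.

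After 72 h without water the fatty acid desaturase genes fell, while no gene of the steps from squalene to cholesterol passed in edgeR. All 4 fatty acid desaturases in the set, Scd, Scd2, Fads1 and Fads2, fell by 1.15- to 1.37-fold. In the mevalonate branch Hmgcs1 and Mvd fell and Pmvk rose, by 1.19-fold lower, 1.13-fold lower and 1.104-fold higher. None of the 5 regulators, none of the 11 enzymes from squalene to cholesterol and none of the 3 genes of fatty acid synthesis itself passed the threshold in edgeR. At an unadjusted p under 0.05, 4046 of all 15311 genes tested would pass. At that level 2 of the regulators, 4 of the sterol enzymes and none of the fatty acid synthesis genes would pass. DESeq2 called 1 of these 19 genes, Dhcr7, and limma-voom none. The level of erythrocyte markers was lower on average in dehydrated libraries, with overlapping ranges. With it as a covariate none of the 7 members above passed, and calls over all genes went from 1192 higher and 750 lower to 410 and 118. The log2 fold changes of Fads1, Mvd and Pmvk in that fit (-0.20, -0.17 and 0.15) were about as large as without it (-0.20, -0.17 and 0.14), and those of the other 4 were nearer to 0. With the level of oligodendrocyte markers, Scd (-0.45, against -0.46 without it), Hmgcs1 (-0.21, against -0.24) and Mvd (-0.15, against -0.17) did not pass. Calls over all genes in that fit were 1000 higher and 565 lower.

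In all, 6 of the 32 members tested fell and 1 rose, with 25 not past the threshold. That is 18.8% lower and 3.13% higher, against 4.9% lower and 7.79% higher among all genes tested, and 21.9% called in either direction against 12.7%. Members had a median of 90.5 CPM and a median SE of 0.048, against 21.0 CPM and 0.067 for all genes tested. A change of a given size was thus easier to call in the members. Their median absolute log2 fold change was smaller (0.078, against 0.091), and the list was chosen with earlier results of these data known. The same 7 members were those whose groups did not overlap, 6 with all dehydrated libraries below all euhydrated ones (3.97% of all genes tested) and 1 with all above (6.9%). Most members moved little: 23 of 32 (71.9%) differed by less than 1.1-fold, against 65.3% of all genes, and the median log2 fold change was -0.039 over the members and -0.0058 over all genes. With library totals in place of TMM factors, 10 members fell and none rose, while the split of all genes turned from 1192 higher and 750 lower to 904 higher and 1173 lower and the median of all genes moved to -0.033. Of the members, 7 fell and 1 rose at an adjusted p under 0.05 in the authors' deposited table, the same genes plus Dhcr7 (0.0463 in the authors' deposited table). Over all 14613 genes with an adjusted p there, 923 fell and 1323 rose.

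**Figure D1:**
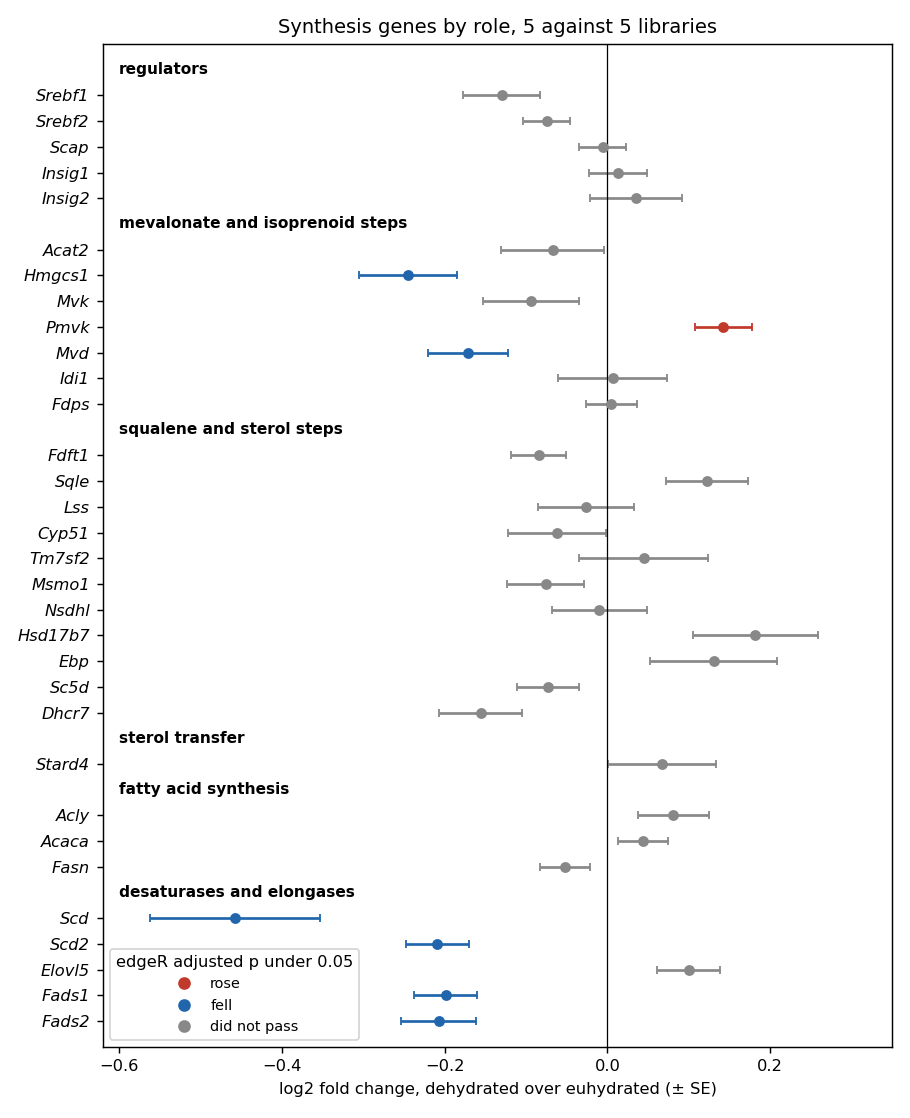
Log2 fold change of each of the 32 members tested (horizontal axis, dehydrated over euhydrated, with its SE), grouped by role down the page. The 4 desaturases, Hmgcs1 and Mvd lie to the left of 0 past the threshold (blue), Pmvk lies to the right (red), and the other 25 (grey) did not pass.

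The regulators are described first. Srebf1 (ENSRNOG00000003463), whose SREBP-1 proteins are known mainly for driving fatty acid genes, had 94.99, 83.3, 95.5, 98.9 and 89.3 CPM in dehydrated 1 to 5, against 104, 94.9, 108, 101 and 97.3 CPM in euhydrated 1 to 5. Its means were 92.4 ± 6.13 CPM in dehydrated and 101 ± 5.35 CPM in euhydrated libraries (SD, n = 5 each). On the log2 scale the difference was -0.13 ± 0.05 (SE), with an edgeR adjusted p of 0.0879. Dehydrated 1, 3 and 4 lay above the lowest euhydrated library, number 2, so the groups overlapped.

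Srebf2, for SREBP-2, known mainly for driving sterol genes, had 204, 209.6, 215, 207 and 202 CPM in dehydrated 1 to 5, against 211, 226, 218, 223 and 214 CPM in euhydrated 1 to 5. Its log2 fold change was -0.07 ± 0.03 (SE; edgeR adjusted p = 0.11), and dehydrated 3 lay above euhydrated 1 and 5, while the other 4 dehydrated libraries lay below all euhydrated ones. Both Srebf genes passed with library totals in place of TMM factors (edgeR adjusted p = 0.0327 for Srebf1 and 0.0411 for Srebf2), and Srebf1 passed without dehydrated 4 (0.0493).

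The escort and the retention proteins differed by less than the spread between libraries. Scap, the escort, had 114, 121, 116, 121 and 118 CPM in dehydrated 1 to 5, against 119, 119, 118, 117 and 120.2 CPM in euhydrated 1 to 5 (log2 fold change -0.01 ± 0.03, SE; edgeR adjusted p = 0.928). Insig1, which holds Scap in the endoplasmic reticulum and is itself a known SREBP target, had 91.2, 86.5, 95.7, 89.1 and 85.4 CPM in dehydrated 1 to 5, against 89.3, 86.4, 91.6, 88.8 and 87.97 CPM in euhydrated 1 to 5 (log2 fold change 0.01 ± 0.04, SE; edgeR adjusted p = 0.871). Insig2, its paralog, had 19.2, 20.01, 22.3, 20.8 and 21.9 CPM in dehydrated 1 to 5, against 18.9, 21.2, 20.4, 19.8 and 21.4 CPM in euhydrated 1 to 5 (log2 fold change 0.04 ± 0.06, SE; edgeR adjusted p = 0.749). In each of these genes the ranges of both groups lay largely on top of each other.

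**Figure D2:**
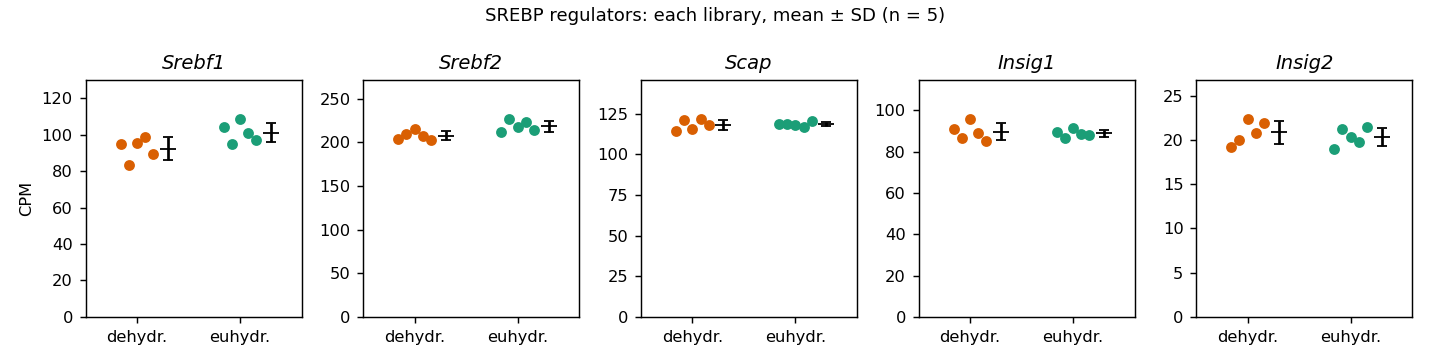
Level of the 5 SREBP regulators (CPM, vertical axis from 0) in each dehydrated library (orange, left) and each euhydrated library (green, right), with the mean and SD of 5 libraries. The groups overlap in all 5 panels, and the means of Srebf1 stand at 92.4 CPM in dehydrated and 101 CPM in euhydrated libraries.

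Of 7 genes of the mevalonate and isoprenoid steps, 2 fell, 1 rose and 4 did not pass. Among all genes tested 4.9% fell and 7.79% rose. Hmgcs1 (ENSRNOG00000016552), the cytosolic synthase that makes HMG-CoA at the entry to the pathway, had 406, 362, 407, 393 and 344 CPM in dehydrated 1 to 5, against 450.1, 435, 409, 469.5 and 503 CPM in euhydrated 1 to 5. The highest dehydrated library, number 3, lay just below the lowest euhydrated one, also number 3. Hmgcs1 was 1.19-fold lower in dehydrated libraries (log2 fold change -0.24 ± 0.06, SE; edgeR adjusted p = 0.0189), and the call was lost without dehydrated 2 (0.0503, at -0.23).

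Mvd (ENSRNOG00000013376), the decarboxylase that yields isopentenyl diphosphate, had 21.1, 21.1, 21.7, 22.8 and 20.1 CPM in dehydrated 1 to 5, against 25.1, 23.2, 23.4, 24.8 and 23.8 CPM in euhydrated 1 to 5. All dehydrated values lay below all euhydrated values, the nearest being dehydrated 4 and euhydrated 2. It was 1.13-fold lower in dehydrated libraries (log2 fold change -0.17 ± 0.05, SE; edgeR adjusted p = 0.0309). That call was lost without dehydrated 1, 2, 3 or 5 or euhydrated 1 or 4, at adjusted p of 0.0505 to 0.0815 and log2 fold changes of -0.18 to -0.15.

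Pmvk (ENSRNOG00000020696), phosphomevalonate kinase, which acts 1 step before Mvd, moved the other way. It had 58.8, 59.6, 61.9, 59.6 and 60.8 CPM in dehydrated 1 to 5, against 54.1, 52.6, 54.2, 56.9 and 54.7 CPM in euhydrated 1 to 5, and every dehydrated library lay above every euhydrated one. The rise was 1.104-fold (log2 fold change 0.14 ± 0.03, SE; edgeR adjusted p = 0.0134), with an adjusted p of 0.0562 when library totals replaced TMM factors. The remaining genes of these steps were Acat2, the thiolase that joins acetyl-CoA units, Mvk, mevalonate kinase, Idi1, the isomerase of isopentenyl diphosphate, and Fdps, which makes farnesyl diphosphate. Their log2 fold changes were -0.07 for Acat2, -0.09 for Mvk, 0.01 for Idi1 and 0.0048 for Fdps (edgeR adjusted p of 0.335 to 0.967).

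None of the 11 genes from squalene to cholesterol passed in edgeR, against a background of 12.7%. The 4 with an unadjusted p under 0.05, a level that 4046 of all 15311 genes tested reached, were Dhcr7, Fdft1, Sqle and Hsd17b7. Sqle, squalene epoxidase, a control point of the branch, had 119.6, 113, 128, 123 and 119 CPM in dehydrated 1 to 5, against 110.4, 100.1, 104, 121 and 119 CPM in euhydrated 1 to 5, with euhydrated 4 and 5 inside the dehydrated range (log2 fold change 0.12 ± 0.05, SE; edgeR adjusted p = 0.137). Dhcr7, the reductase that makes cholesterol from its 7-dehydro precursor, had 35.1, 34.5, 36.4, 33.7 and 33.4 CPM in dehydrated 1 to 5, against 37.98, 35.96, 36.7, 38.8 and 43.4 CPM in euhydrated 1 to 5. Among dehydrated libraries only number 3 reached above the lowest euhydrated library, number 2. Its log2 fold change of -0.16 ± 0.05 (SE) missed the threshold in edgeR (adjusted p = 0.0592) and passed with DESeq2 (0.0469), with library totals (0.0301) and in edgeR without euhydrated 2 (0.0408).

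The other sterol enzymes ran both ways. Hsd17b7, a ketoreductase of C4 demethylation, had the highest log2 fold change, 0.18 ± 0.08 (SE; edgeR adjusted p = 0.14), at 11.8 CPM in dehydrated and 10.4 CPM in euhydrated libraries, and passed without euhydrated 4 (0.0493). Ebp, the sterol isomerase, stood at 0.13 and Tm7sf2, a sterol C14 reductase, at 0.04. On the lower side were Fdft1, squalene synthase, at -0.08, Msmo1, a C4 methyl oxidase, at -0.08, Sc5d, a sterol desaturase, at -0.07, Cyp51, the lanosterol demethylase, at -0.06, Lss, lanosterol synthase, at -0.03, and Nsdhl, a decarboxylating dehydrogenase, at -0.01. Stard4, which carries sterols between membranes, differed by 0.07 ± 0.07 on the log2 scale (SE, edgeR adjusted p = 0.57).

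The genes that make palmitate did not pass. Acaca, acetyl-CoA carboxylase, the committed step, had 107, 109.6, 107, 111 and 104 CPM in dehydrated 1 to 5, against 101, 107, 104, 103 and 106 CPM in euhydrated 1 to 5 (log2 fold change 0.04 ± 0.03, SE; edgeR adjusted p = 0.393). Fasn, fatty acid synthase, had 367, 371, 377, 363 and 346 CPM in dehydrated 1 to 5, against 372, 371, 366, 389.7 and 391 CPM in euhydrated 1 to 5 (log2 fold change -0.05 ± 0.03, SE; edgeR adjusted p = 0.305). Acly, ATP citrate lyase, which supplies the acetyl-CoA, averaged 466 ± 33.98 CPM in dehydrated and 441 ± 16.1 CPM in euhydrated libraries (SD, n = 5 each; log2 fold change 0.08 ± 0.04, edgeR adjusted p = 0.259). The groups overlapped in each of the 3 genes.

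The desaturases were the enzymes of fatty acid metabolism in the set that fell. Scd and Scd2 are stearoyl-CoA desaturases, which place the first double bond in saturated fatty acids, and Fads1 and Fads2 are the delta-5 and delta-6 desaturases of polyunsaturated fatty acid synthesis. By the RefSeq annotation of the rat assembly GRCr8 the 4 genes form 2 neighbouring pairs on chromosome 1. No protein-coding gene lies between Fads1 and Fads2, and 1, Scd4, lies between Scd and Scd2. Promoter windows, from 250 bases before to 50 after each RefSeq start, were given for 26 of the 33 members, 27 windows in all. Those of Scd2, of Fads1 and its neighbour Fads2, and of Hmgcs1 are shown because these genes fell, Fads1 and Fads2 as neighbours and with different content of the motif searched. They lie on chromosome 1 or 2, at chr1:253118127-253118426, plus strand (Scd2), chr1:216252442-216252741, plus strand (Fads1), chr1:216171984-216172283, minus strand (Fads2) and chr2:53382054-53382353, plus strand (Hmgcs1), in GRCr8. Each is written 5′ to 3′ in the direction of the gene, and capitals mark CCAAT or its reverse complement ATTGG, the box bound by the factor NF-Y, a known partner of SREBPs.
Scd2: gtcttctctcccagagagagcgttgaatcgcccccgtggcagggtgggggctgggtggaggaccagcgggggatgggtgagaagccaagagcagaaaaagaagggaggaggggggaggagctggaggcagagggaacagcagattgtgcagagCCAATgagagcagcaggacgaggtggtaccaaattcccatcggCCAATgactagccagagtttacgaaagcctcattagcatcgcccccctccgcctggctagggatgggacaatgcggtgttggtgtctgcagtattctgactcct
Fads1: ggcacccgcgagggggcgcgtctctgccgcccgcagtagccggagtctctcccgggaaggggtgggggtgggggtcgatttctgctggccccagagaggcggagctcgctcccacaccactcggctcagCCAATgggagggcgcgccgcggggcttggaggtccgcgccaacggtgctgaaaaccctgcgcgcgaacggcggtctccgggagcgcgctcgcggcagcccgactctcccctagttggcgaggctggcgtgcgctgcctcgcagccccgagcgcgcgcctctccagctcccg
Fads2: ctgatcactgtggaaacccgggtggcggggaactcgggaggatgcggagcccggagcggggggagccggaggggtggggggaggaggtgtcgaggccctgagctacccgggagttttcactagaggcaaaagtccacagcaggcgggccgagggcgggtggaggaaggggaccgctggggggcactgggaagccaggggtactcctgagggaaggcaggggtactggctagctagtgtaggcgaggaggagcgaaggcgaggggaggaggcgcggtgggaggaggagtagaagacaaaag
Hmgcs1: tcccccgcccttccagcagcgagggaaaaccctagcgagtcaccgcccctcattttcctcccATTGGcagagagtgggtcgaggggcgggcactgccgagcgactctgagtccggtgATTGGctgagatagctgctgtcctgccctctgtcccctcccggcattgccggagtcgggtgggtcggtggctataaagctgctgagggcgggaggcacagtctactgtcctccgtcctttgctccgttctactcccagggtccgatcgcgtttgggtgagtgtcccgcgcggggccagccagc

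A CCAAT box on either strand was present in 21 of the 27 member windows (77.8%) and in 37.5% of all 33469 windows. It occurred in 4 of the 6 windows of genes that fell, those of Scd2, Fads1, Hmgcs1 and Mvd, and in 17 of the 21 windows of members that did not pass. A second motif, the sterol regulatory element core TCACNCCAC on either strand, was in none of the 27 member windows and in 1.12% of all windows. With no match of the second motif there was no overlap between them, and a match or its lack describes only these letters in these windows.

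Scd (ENSRNOG00000013552) had 45.1, 36.5, 49.7, 42.2 and 34.9 CPM in dehydrated 1 to 5, against 52.1, 54.8, 53.1, 59.05 and 67.3 CPM in euhydrated 1 to 5. The highest dehydrated library, number 3, stayed below the lowest euhydrated one, number 1, and the spread within each group was wide. Scd was 1.37-fold lower in dehydrated libraries, at 41.7 ± 6.13 CPM in dehydrated and 57.3 ± 6.20 CPM in euhydrated libraries (SD, n = 5 each; log2 fold change -0.46 ± 0.10, SE; edgeR adjusted p = 0.0162). It was the largest change among the members.

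Scd2 (ENSRNOG00000046005), the main desaturase of brain in rodents, had 3549, 3502, 3589, 3649 and 3403 CPM in dehydrated 1 to 5, against 3925, 4036, 3851, 4153 and 4482 CPM in euhydrated 1 to 5. The dehydrated values sat close together and all lay below the euhydrated ones, of which number 5 was the highest. The fall was 1.16-fold (log2 fold change -0.21 ± 0.04, SE; edgeR adjusted p = 0.00223). Scd and Scd2 are close paralogs, and the sources used here do not state how reads shared by both were counted, which leaves their separate sizes uncertain. The third gene of the cluster, Scd4, had at most 13 counts in a library.

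Fads1 (ENSRNOG00000020480) had 191, 192, 205, 191 and 181 CPM in dehydrated 1 to 5, against 218, 231, 231, 205 and 216 CPM in euhydrated 1 to 5. The groups were barely separate, with dehydrated 3 at 204.9 CPM just under euhydrated 4 at 205.1 CPM. Fads1 was 1.15-fold lower in dehydrated libraries (log2 fold change -0.20 ± 0.04, SE; edgeR adjusted p = 0.00298).

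Fads2 (ENSRNOG00000020440) had 77.3, 76.1, 73.95, 73.9 and 65.997 CPM in dehydrated 1 to 5, against 79.5, 90.3, 82.1, 84.96 and 87.1 CPM in euhydrated 1 to 5. Dehydrated 5 was the lowest, and dehydrated 1, the highest of its group, came within a few CPM of euhydrated 1. It was 1.15-fold lower in dehydrated libraries (log2 fold change -0.21 ± 0.05, SE; edgeR adjusted p = 0.00763). Scd, Scd2, Fads1 and Fads2 all kept their calls when any 1 library was left out.

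Neither elongase was called. Elovl5, an elongase of polyunsaturated fatty acids, had 93.4, 96.5, 98.4, 91.6 and 94.7 CPM in dehydrated 1 to 5, against 86.9, 85.9, 85.8, 87.4 and 96.9 CPM in euhydrated 1 to 5, and euhydrated 5 alone stood inside the dehydrated range. Its log2 fold change was 0.10 ± 0.04 (SE; edgeR adjusted p = 0.104), and without euhydrated 5 it was 0.14 and passed (0.0147). Elovl6, an elongase of saturated fatty acids, was too low to test, with 5 counts over the 10 libraries and at most 1 in a library.

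**Figure D3:**
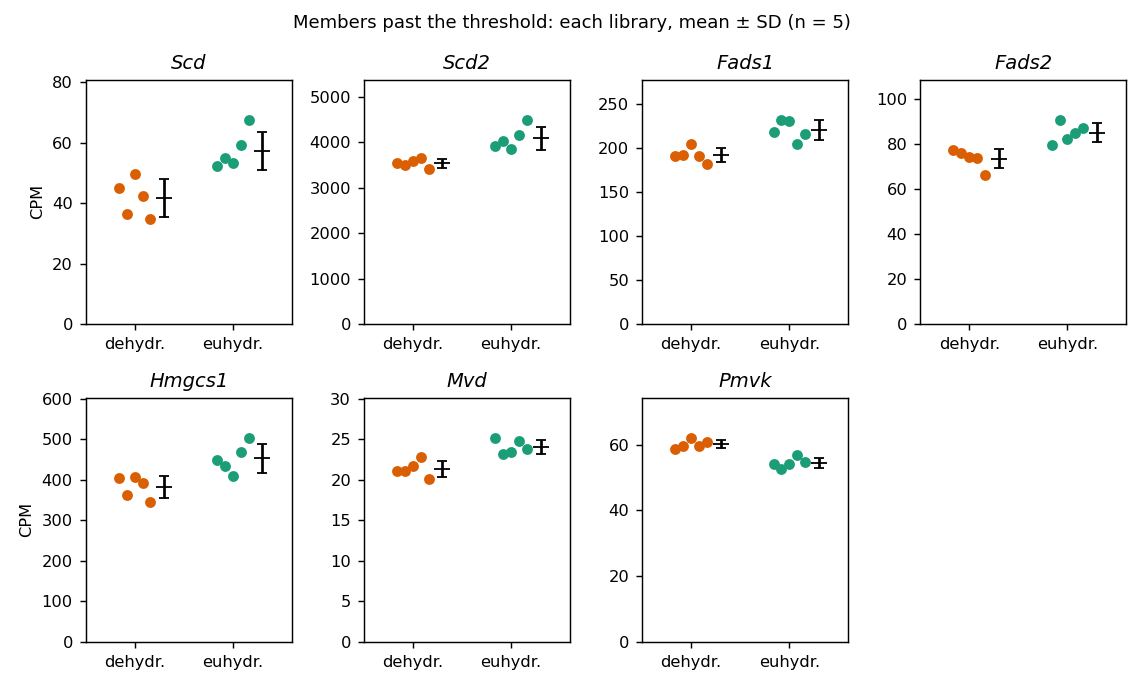
Level (CPM, vertical axis from 0) of the 7 members past the threshold in each dehydrated library (orange, left) and euhydrated library (green, right), with the mean and SD of 5 libraries. The groups separate in every panel, by the least in Hmgcs1 and Fads1, and Pmvk is the gene with the dehydrated libraries on top.

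Single libraries differed across many members at once. Among dehydrated libraries, number 5 was the lowest for 10 of 18 enzymes of the cholesterol branch and for 7 of 8 fatty acid enzymes tested, and number 3 was the highest for 11 of 18 and 4 of 8. Among euhydrated libraries, number 3 was the lowest for 10 of the 18 cholesterol enzymes, and numbers 4 and 5 were the highest for 8 and 6 of them. As a share of all counts, the 33 members took 0.694% to 0.739% in dehydrated and 0.770% to 0.861% in euhydrated libraries. The enzymes of the cholesterol branch took 0.175% to 0.191% in dehydrated and 0.187% to 0.211% in euhydrated libraries, and the fatty acid enzymes 0.466% to 0.492% in dehydrated and 0.523% to 0.593% in euhydrated libraries, so the ranges overlapped for the cholesterol enzymes and stood apart for the fatty acid enzymes. The fatty acid share is mostly counts of Scd2. With genes weighted equally, the mean log2 CPM of the 8 fatty acid enzymes tested, each centred on its own mean over the libraries, was -0.15 to 0.0038 in dehydrated and -0.0014 to 0.13 in euhydrated libraries, and the ranges overlapped.

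**Figure D4:**
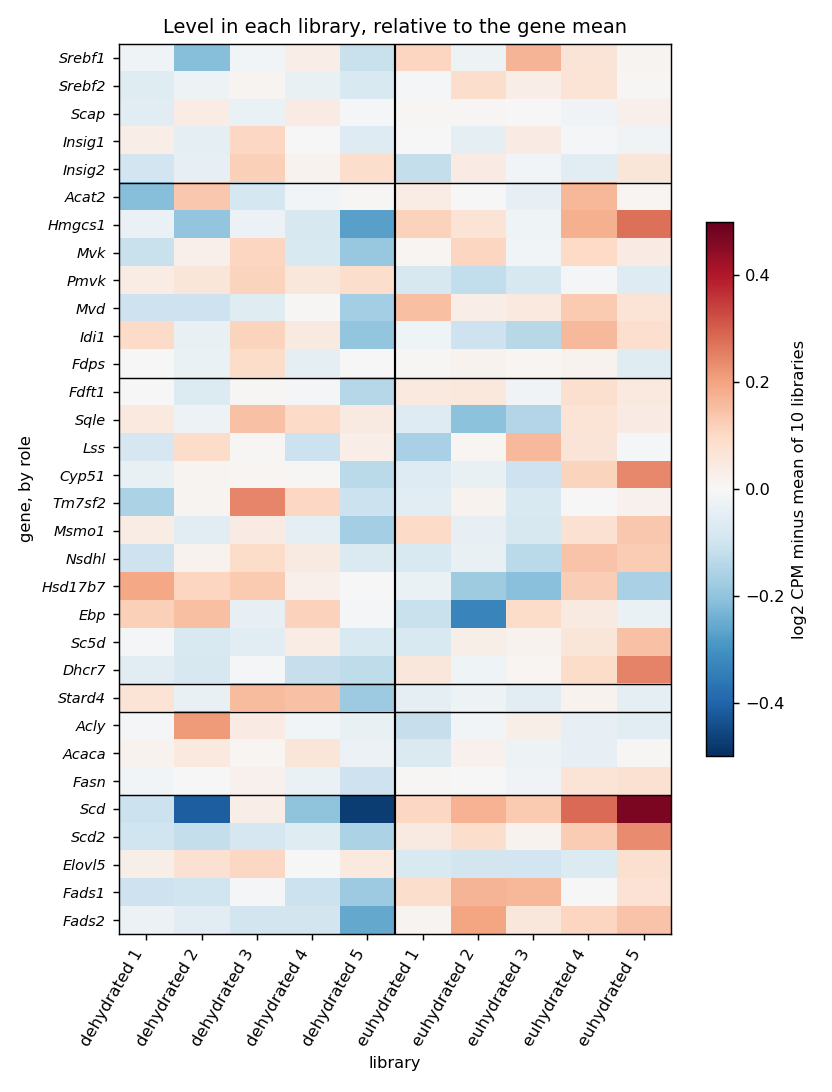
Level of each of the 32 members tested (down the page, by role) in each of the 10 libraries (dehydrated left of the black line, euhydrated right of it), as log2 CPM minus the mean of the gene over the 10 libraries, with red above and blue below that mean. The lines of the 4 fatty acid desaturases run mostly blue on the left and red on the right, apart from Scd in dehydrated 3, just above its mean, and Fads1 in euhydrated 4, just below, dehydrated 5 is blue for most enzymes, and the sterol lines mix both colours on both sides.

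Marker lists of other cell types were read beside these genes. Of all genes tested, 7.79% rose and 4.9% fell, and 4046 of 15311 had an unadjusted p under 0.05. Of 12 oligodendrocyte markers, 10 had a negative log2 fold change and 2, Cnp and Opalin, fell, with a median of -0.18. Their summed level was 9648 to 12307 CPM in dehydrated and 10098 to 14726 CPM in euhydrated libraries, in an overlapping spread. Of 8 erythrocyte markers, 6 were tested and all 6 had a negative log2 fold change, with a median of -0.73. Among them Slc4a1, at 5 to 60 counts in a library, fell in edgeR, and limma-voom called none. Hemgn and Ahsp, with at most 23 counts in a library, were too low to test. The erythrocyte list summed to 455 to 1089 CPM in dehydrated and 812 to 1623 CPM in euhydrated libraries, and the ranges overlapped. No marker of these lists was at 0 in a library. Of 10 astrocyte markers none passed in edgeR, DESeq2 or limma-voom (1 at an unadjusted p under 0.05), with a median of -0.055 and summed levels of 5138 to 5928 CPM in dehydrated and 5119 to 6256 CPM in euhydrated libraries. Of 8 microglial markers none passed in edgeR (4 at an unadjusted p under 0.05) and P2ry12 fell in DESeq2, and of 7 endothelial markers none passed in any of the 3 tools (2 at an unadjusted p under 0.05). Of 7 neuronal markers tested Tubb3 rose and Nefl fell. Of the 8 magnocellular markers 5 rose in edgeR, namely Pdyn, Caprin2, Scg2, Nucb2 and Nos1. Avp (edgeR adjusted p = 0.08), Oxt (0.254) and Kcnmb4 (0.286) did not pass, while DESeq2 and limma-voom each called 6 of the 8 higher.

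The fit was repeated with the mean log2 CPM of the oligodendrocyte, astrocyte or erythrocyte list as a covariate, and not with the other lists. With the oligodendrocyte level, Scd2, Fads1 and Fads2 stayed past the threshold, at log2 fold changes of -0.17 for Scd2, -0.24 for Fads1 and -0.21 for Fads2 (edgeR adjusted p = 0.0145 for Scd2, 0.000761 for Fads1 and 0.0163 for Fads2). Scd (-0.45 ± 0.13, adjusted p = 0.0658), Hmgcs1 (-0.21, 0.0864) and Mvd (-0.15, 0.108) lost their calls, and Sqle rose (0.17, 0.0495). Over all genes tested, 1000 rose and 565 fell with the oligodendrocyte level. With the astrocyte level all 7 calls held. With the erythrocyte level none of the 7 passed, and 410 genes rose and 118 fell of all tested, against 1192 and 750 without it. In that fit Fads1 stood at -0.20 ± 0.06 (SE, log2), Mvd at -0.17 ± 0.08 and Pmvk at 0.15 ± 0.05, close to their values without it, while Fads2 was nearer to 0 at -0.08 ± 0.06, Scd at -0.28 ± 0.14, Scd2 at -0.14 ± 0.06 and Hmgcs1 at -0.14 ± 0.08. The mean log2 CPM of the erythrocyte list itself differed by group, at 3.58 ± 0.47 in dehydrated and 4.43 ± 0.40 in euhydrated libraries (SD, n = 5 each). Group and erythrocyte level can therefore not be fully told apart in that fit. The part of blood or myelin content in these results was not tested beyond these fits.

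**Figure D5:**
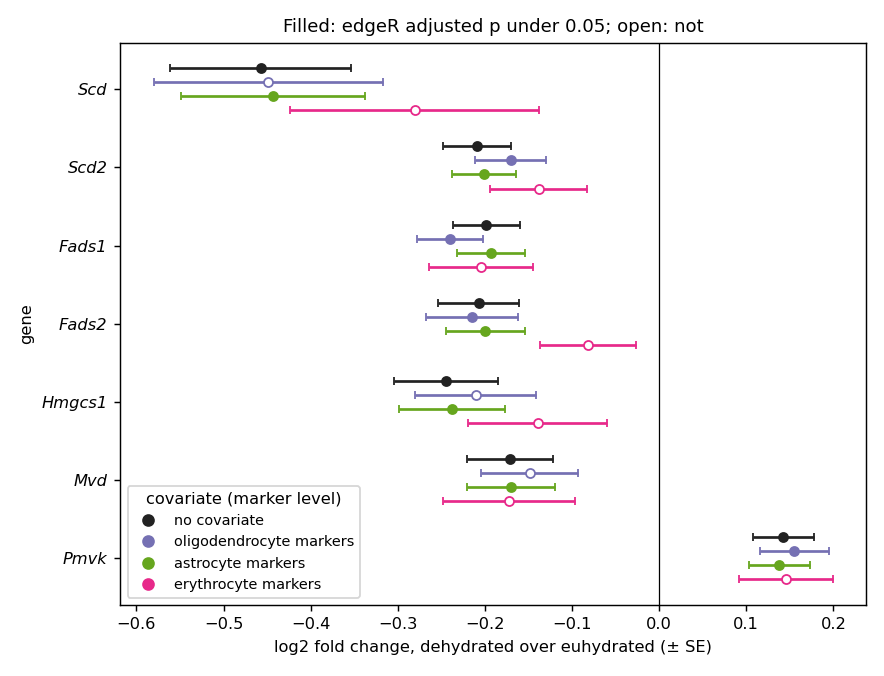
Log2 fold change (dehydrated over euhydrated, with SE) of the 7 members past the threshold, fitted without a covariate and with the mean marker level of oligodendrocytes, astrocytes or erythrocytes. Filled points pass and open points miss an edgeR adjusted p of 0.05, and no estimate changes sign.

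Further genes of these pathways, 62 in 4 lists, were set beside the members. Of them 11 rose, 3 fell and 48 did not pass (22.6% called, against 12.7% of all genes tested), and the median log2 fold change was -0.014. The lists were chosen with earlier results of these data known, so these shares describe them and test nothing. Of 10 genes listed under control or processing of SREBPs or lipogenesis, 2 rose and 2 fell (20% each, against 7.79% and 4.9% of all genes tested). Thrsp, known as Spot 14 and as a lipogenic protein in liver, had 15.9, 13.5, 16.96, 19.7 and 14.04 CPM in dehydrated 1 to 5, against 22.8, 23.6, 19.8, 24.7 and 23.8 CPM in euhydrated 1 to 5 and was 1.43-fold lower in dehydrated libraries (edgeR adjusted p = 0.0023). Mid1ip1, its paralog, which is known to promote polymerisation of acetyl-CoA carboxylase, was 1.095-fold lower (126 CPM in dehydrated and 138 CPM in euhydrated libraries, edgeR adjusted p = 0.0157). For both genes all dehydrated libraries lay below all euhydrated ones.

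The genes of that list that rose were Rnf139, an endoplasmic reticulum ubiquitin ligase (1.12-fold, edgeR adjusted p = 0.023), and Ubxn8, an endoplasmic reticulum protein with a UBX domain (1.19-fold, 0.013). No role of Ubxn8 in SREBP control is claimed here, so its place in the list is uncertain. The rise of Rnf139 did not pass with library totals (0.0535) or without dehydrated 3 (0.0602) or euhydrated 2 (0.0585). Mbtps1 and Mbtps2, the proteases that cut SREBPs in the Golgi, differed by -0.01 ± 0.03 and 0.05 ± 0.07 on the log2 scale (SE, edgeR adjusted p = 0.872 and 0.685).

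None of 12 enzymes of the isoprenoid and oxysterol branches passed, in edgeR, DESeq2 or limma-voom, at log2 fold changes of -0.17 to 0.09 (2 had an unadjusted p under 0.05). Of 14 genes of sterol transport, storage and efflux, 3 rose (21.4%, against 7.79% of all genes tested) and none fell in edgeR. Of these 14 genes, 8 had an unadjusted p under 0.05, against 4046 of the 15311 genes tested. In DESeq2 Soat1, which esterifies cholesterol, also fell (adjusted p = 0.0497, against 0.0517 in edgeR). Lrp8, a receptor of the LDL receptor family that binds reelin and apolipoprotein E, had 129, 122, 133, 127 and 123 CPM in dehydrated 1 to 5, against 99.6, 100.4, 108, 101 and 101 CPM in euhydrated 1 to 5, with every dehydrated library above every euhydrated one. The rise was 1.24-fold (log2 fold change 0.32 ± 0.03, SE; edgeR adjusted p = 1.93e-05), and it passed under every alternative tried. Nceh1, a cholesteryl ester hydrolase, rose 1.099-fold (edgeR adjusted p = 0.0177), with 0.0581 under library totals. Lrp1 rose 1.08-fold (0.0438), a call lost without dehydrated 1, 2 or 4 or euhydrated 1, 2, 4 or 5 (adjusted p of 0.0545 to 0.104), with library totals (0.11) and with the oligodendrocyte covariate (0.131).

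Of 26 genes of fatty acid supply and use, 6 rose (23.1%) and 1 fell (3.85%), against 7.79% and 4.9% of all genes tested. Hsd17b12, the 3-ketoacyl-CoA reductase of fatty acid elongation, had 128, 135, 137, 136 and 142 CPM in dehydrated 1 to 5, against 109, 107, 115, 104 and 109 CPM in euhydrated 1 to 5 and rose 1.247-fold (edgeR adjusted p = 2.27e-05), past the threshold under every alternative tried. Hacd3, a 3-hydroxyacyl-CoA dehydratase, rose 1.11-fold (256 CPM in dehydrated and 231 CPM in euhydrated libraries, edgeR adjusted p = 0.00235), and Elovl2, an elongase of long polyunsaturated fatty acids, rose 1.15-fold (45.3 CPM in dehydrated and 39.2 CPM in euhydrated libraries, 0.00471). Other elongation enzymes of the list did not pass in edgeR: Tecr, the enoyl-CoA reductase, at a log2 fold change of -0.01 (adjusted p = 0.869), and the elongases Elovl1 at -0.13 (0.134), Elovl4 at 0.10 (0.102) and Elovl7 at -0.09 (0.607). Acsl4, an acyl-CoA synthetase that prefers arachidonate, rose 1.13-fold (0.00561). Fabp5, a fatty acid-binding protein, rose 1.24-fold (77.1 CPM in dehydrated and 62.3 CPM in euhydrated libraries, edgeR adjusted p = 0.0259), and Cpt1a, which passes fatty acids to mitochondrial oxidation, rose 1.12-fold (59.8 CPM in dehydrated and 53.4 CPM in euhydrated libraries, 0.0314). The call of Fabp5 was lost without dehydrated 1 or euhydrated 2, 3, 4 or 5 (adjusted p of 0.0525 to 0.0602), with no filter on low counts (0.0569) and with the oligodendrocyte covariate (0.102). That of Cpt1a was lost without dehydrated 2 or 5 or euhydrated 1, 2 or 4 (adjusted p of 0.0651 to 0.0793), with library totals (0.0665) and with the oligodendrocyte covariate (0.0503). The gene of this list that fell, Acss2, was named like Fabp5, Cpt1a and Soat1 after its value was seen. It makes acetyl-CoA from acetate and stood at 76.4 CPM in dehydrated and 85.1 CPM in euhydrated libraries (edgeR adjusted p = 0.0227), a call lost without dehydrated 4 or 5 or euhydrated 2 or 5 (adjusted p of 0.0514 to 0.0577) and with the oligodendrocyte covariate (0.058). With the erythrocyte covariate 2 of the 62 genes, Lrp8 and Hsd17b12, passed (edgeR adjusted p = 0.00375 and 0.0108).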

How the data were processed

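Polyadenylated RNA from SON punches of 5 dehydrated and 5 euhydrated rat samples was sequenced with a stranded kit, per the labels' protocols. The authors deposited whole-number counts per gene, and a table with normalised signal (counts divided by a size factor), log2 fold changes, a test score and p-values. CASAVA, FastQC, STAR, featureCounts and DESeq2 1.28.1 are named in the submitters' processing notes, while the genome build, the annotation and whether counting used strand were not given in the sources used here. Reads of a gene and of an overlapping antisense gene may therefore not be separate.

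Counts were tested in R 4.3.3 with edgeR 4.0.16 (filterByExpr, TMM scaling, robust quasi-likelihood test, Benjamini-Hochberg adjustment over 15311 genes, threshold 0.05). The SE of a log2 fold change is its size divided by the square root of the F value. CPM use TMM-scaled library sizes, with a prior count of 2 only for log2 CPM. Alternatives were other scalings, other filters, DESeq2 1.42.0, limma-voom (limma 3.58.1), replicate blocks, marker covariates and leaving out each library. On simulated data with these library sizes and 50 genes changed at each fold, the test recovered 4% of genes changed 1.1-fold, 54% at 1.25-fold and 74% at 1.5-fold. The changed genes were drawn at random from all tested. The simulation gave 118 calls, against 1942 in the data, and fewer calls make the adjusted threshold stricter. These shares may therefore be too low for the members.

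Of the 10 count columns, 7 matched 1 sample by number and 3, euhydrated 3 to 5, matched their group only. No pair of libraries within a group matched to within counting noise (genes with 20 or more counts, chi-square over degrees of freedom 4.86 to 12.1). The members, the other pathway lists and the markers were chosen with earlier results of these data known. Values per library are given for members past the threshold, the regulators, Hmgcs1, Sqle, Acaca, Fasn, Scd and Scd2, and Dhcr7, Srebf1, Elovl5 and Srebf2, the 4 next by adjusted p, and for the most changed genes of the other lists. Promoter windows came from RefSeq (GRCr8) by symbol, and the files' build may differ. Of 63 further pathway genes listed, 62 matched a symbol.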

Additional observations from a re-analysis of the deposited data

Results flagged for a closer look

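Among the 64 sets of 5 libraries examined for the members, 3 held a library far from the others of its group, where chance gives about 1 in 20. Elovl5 stood at 96.9 CPM in euhydrated 5, with the other euhydrated libraries at 85.8 to 87.4 CPM. Fdps stood at 219 CPM in euhydrated 5, below the others at 229 to 231 CPM. Acly stood at 525 CPM in dehydrated 2, above the others at 442 to 466 CPM.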

How the results depend on the processing

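No called value of a member or of a further pathway gene past the threshold changed sign: of 966 values under other settings, 888 kept their side of the threshold, 66 lost and 12 gained a call. With library totals, 904 genes rose and 1173 fell over all genes, with 0 members higher and 10 lower. The oligodendrocyte covariate gave 1000 genes higher and 565 lower over all genes, with 2 members higher and 3 lower. With the erythrocyte covariate 410 genes rose and 118 fell, with 0 members higher and 0 lower. At a threshold of 0.01, 658 genes rose and 233 fell, with 0 members higher and 3 lower. Leaving out 1 library at a time gave 1 to 2 members higher and 4 to 7 lower, and 955 to 1113 genes higher and 516 to 689 lower over all genes. Of the further pathway genes 11 rose and 3 fell, against 7 and 6 with library totals, 10 and 6 with the block on column numbers, 2 and 0 with the erythrocyte covariate, 5 and 1 at 0.01, and 7 that rose without euhydrated 2. The cause was not tested. 

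Same-numbered libraries did not deviate together (correlations of -0.0682 to 0.141 over genes), so the numbers do not pair them. A replicate block on column numbers gave 1160 genes higher and 796 lower, with 1 member higher and 5 lower (Hmgcs1 and Scd lost, Srebf1 gained), and a block on numbers 1 and 2 gave 1146 and 715, with 1 and 7 (Srebf1 gained). Lrp1 lost its call under both blocks. Differences near 1.1-fold are at the limit of what 5 libraries a group can show. The alternatives for the further pathway genes were added after seeing the data.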
